A study of Mus musculus with 308 samples.

Results

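The 37 genes described here encode proteins that move solutes and water across the brush border and the basolateral membrane of the kidney proximal tubule and of the intestinal enterocyte. They were taken as a fixed list, chosen with earlier results of these data known. A gene was followed through the probe sets whose only symbol in the array's gene table was its own. Of the 37, 35 had such a probe set (49 probe sets, among 17097 genes with one), and Slc34a1 and Lrp2 were not analysed here. Levels were read in 46 kidney and 43 jejunum arrays of a series of 308 Affymetrix arrays from 7 tissues of C57BL/6 mice, 1 array per labelled sample, as the log2 values that the authors deposited.

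Dimethyl fumarate (DMF), an oral fumaric acid ester used in multiple sclerosis and psoriasis, was given at 100 mg/kg (DMF100, 8 kidney and 6 jejunum arrays) or 179.2 mg/kg (DMF179.2, 8 and 7 arrays). Monoethyl fumarate (MEF) was given as a mixture of its calcium, magnesium and zinc salts at 79.2 mg/kg (MEF79.2, 7 and 7 arrays), and 1 group received DMF at 100 mg/kg together with the MEF salts at 79.2 mg/kg (DMF plus MEF, 8 and 8 arrays). A group labelled Nav, whose treatment the labels do not give, had 8 and 7 arrays. Vehicle mice, with 7 and 8 arrays, received 0.8% hydroxypropyl methylcellulose. Dosing was once daily for 10 days and organs were taken 12 hours after the last dose. The series' design text gives 6 to 10 mice per dose group, and the labels do not say whether arrays of 1 group came from separate mice, so p-values measure the spread between arrays. Sex and age were not given in the labels used here. Each treatment was compared with the same vehicle arrays, so the comparisons with vehicle are not independent of each other.

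As background, the proximal tubule reclaims nearly all filtered glucose, amino acids, phosphate and small proteins, mostly by sodium-coupled carriers at the apical membrane. It also secretes organic anions and drugs, taking them from the blood through basolateral carriers of the OAT and OCT families. Of these, OAT1 and OAT3 work in exchange for dicarboxylates. Enterocytes of the small intestine use several of the same sugar, amino acid and peptide carriers to absorb the products of digestion, and HNF1 and HNF4 are known transcriptional regulators in both epithelia. DMF and MEF activate NRF2, the regulator of antioxidant and detoxification genes.

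Arrays of the labelled organs carried the defining carriers of each. In kidney the level of Slc22a6, the organic anion carrier OAT1, ranged over 11.69 to 12.01 in vehicle arrays, while in jejunum it lay within 2.13 to 2.28, beside a lowest deposited value of 2.13. Slc15a1, the intestinal peptide carrier PEPT1, ranged over 12.77 to 13.21 in vehicle jejunum. A gene was tested in an organ if at least 5 of its arrays exceeded the median of all values there (5.10 in kidney, 4.89 in jejunum). This left 34 members among 10706 genes in kidney and 23 among 10847 in jejunum. Slco1a1 was the member left out in kidney, at 2.14 in every vehicle array, the lowest deposited value there. The 12 members left out in jejunum were Slc34a3, Slc13a3, Slc17a3, Slc26a1, Slc22a2, Slc22a6, Slc22a7, Slc22a8, Slc22a19, Slco1a1, Slco4c1 and Slc6a18. Levels are given as the lowest, median and highest array of a group, differences are of group means on the log2 scale with their standard error, and p-values are limma's, adjusted over all genes tested in the organ and called at 0.05.

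The stretches of 250 bases before the transcription start are printed for 3 members. Slc22a19 had the largest called fall in kidney among members whose promoter was in the RefSeq table used. Slc3a1 and Slc7a9 encode the paired subunits of a cystine carrier. Slc3a1 was called lower in both organs under DMF179.2. Slc7a9 was called lower in kidney under MEF79.2 and DMF plus MEF, and in jejunum under DMF179.2. The stretches are from RefSeq, build GRCm38.p6, at chr19:7711311-7711560, minus strand for Slc22a19, chr17:85028097-85028346, plus strand for Slc3a1 and chr7:35448842-35449091, plus strand for 1 of 2 listed starts of Slc7a9. Capitals mark a match to 1 of the 3 motifs searched on both strands, which do not overlap in these windows.
Slc22a19: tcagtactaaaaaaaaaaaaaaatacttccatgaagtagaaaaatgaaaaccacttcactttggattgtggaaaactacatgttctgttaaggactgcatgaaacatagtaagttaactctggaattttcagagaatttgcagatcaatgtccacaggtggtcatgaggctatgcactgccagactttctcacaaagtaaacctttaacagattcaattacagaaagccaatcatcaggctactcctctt
Slc3a1: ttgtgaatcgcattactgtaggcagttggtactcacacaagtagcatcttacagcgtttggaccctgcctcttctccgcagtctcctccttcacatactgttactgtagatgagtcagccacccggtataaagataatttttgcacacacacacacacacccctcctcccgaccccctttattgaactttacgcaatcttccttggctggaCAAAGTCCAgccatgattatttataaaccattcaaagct
Slc7a9: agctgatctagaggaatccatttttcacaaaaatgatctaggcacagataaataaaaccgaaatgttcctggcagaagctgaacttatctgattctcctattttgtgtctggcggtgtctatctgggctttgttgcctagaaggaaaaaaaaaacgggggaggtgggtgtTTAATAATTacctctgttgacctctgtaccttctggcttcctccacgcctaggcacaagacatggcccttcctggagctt
The capitals in Slc3a1 are the HNF4 site CAAAGTCCA, beginning 39 bases before the start. Those in Slc7a9 are the HNF1 core TTAATNATT, beginning 80 bases before the start. Promoter windows were listed for 32 of the 37 members. The HNF4 site lay in the window of 1 of the 32 (Slc3a1), against 0.451% of all 27025 genes. The HNF1 core lay in that of 3 of the 32 (Cubn, Slc7a8 and Slc7a9), against 1.64% of all genes. The antioxidant response element core TGACNNNGC, the motif that NRF2 binds, lay in 4 of the 32 (Amn, Slc13a3, Slc26a1 and Slco4c1), against 11.5% of all genes. A match describes the letters of the window only.

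In kidney, the largest called falls, under DMF179.2, were of 3 carriers of the straight proximal tubule: Slc22a7 (OAT2), Slc22a19 (OAT5) and Slc6a18 (a neutral amino acid carrier, B0AT3). Slc6a18 was called under all 4 treatments, Slc22a19 under all but DMF100, and Slc22a7 under DMF179.2 and DMF plus MEF. Most other members moved by little or did not pass the test. Of 34 members tested, 4 were called under DMF100 (1 rose and 3 fell), against 8.09% of all genes (4.51% higher and 3.58% lower). Under DMF179.2, 11 were called (5 rose and 6 fell), against 16.7% of all genes (10.6% higher and 6.09% lower). Under MEF79.2, 8 were called (3 rose and 5 fell), against 14.2% (8.75% higher and 5.45% lower). Under DMF plus MEF, 16 were called (6 rose and 10 fell), against 30.3% (17.7% higher and 12.6% lower). The median log2 difference of the 34 members was -0.046, 0.0072, -0.014 and 0.018 under DMF100, DMF179.2, MEF79.2 and DMF plus MEF, beside 0.0016, 0.013, 0.0081 and 0.016 over all genes tested. The members' share called was above that of all genes under each treatment, a comparison with no test. The list was chosen with earlier results of these data known, so this excess is no result about the members. In bulk organ RNA, fewer cells of a type and less RNA per cell cannot be told apart.

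Slc22a7, the organic anion carrier OAT2, moves organic anions such as prostaglandins. Its level (lowest, median and highest array) was 10.36, 10.48 and 11.11 in DMF100 kidneys, 7.12, 10.14 and 10.77 in DMF179.2 kidneys, 9.80, 10.39 and 10.61 in MEF79.2 kidneys and 8.12, 10.28 and 10.55 in DMF plus MEF kidneys. It was 11.10, 11.24 and 11.48 in Nav kidneys and 11.06, 11.19 and 11.33 in vehicle kidneys. Of the 31 treated arrays, 30 lay below every vehicle array, and the exception was a DMF100 kidney. The log2 difference from vehicle was -1.58 ± 0.34 (adjusted p = 0.000796) under DMF179.2 and -1.20 ± 0.34 (adjusted p = 0.00636) under DMF plus MEF. It was -0.62 ± 0.34 (adjusted p = 0.279) under DMF100 and -0.94 ± 0.35 (adjusted p = 0.0613) under MEF79.2, which did not pass the test.

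In the kidneys of DMF179.2 replicates 23 and 24 and of DMF plus MEF replicate 35, the level of Slc22a7 stood far below its group, and these arrays widen the spread that all comparisons share. Without them, in an alternative chosen after the values were seen, the log2 difference of Slc22a7 was -0.62 ± 0.14 (adjusted p = 0.00261) under DMF100, -0.90 ± 0.15 (adjusted p = 3.43e-05) under DMF179.2, -0.94 ± 0.14 (adjusted p = 1.5e-05) in MEF79.2 kidneys and -0.94 ± 0.14 (adjusted p = 4.94e-06) under DMF plus MEF. Fitted on each pair of groups alone with all arrays kept, it was -0.62 ± 0.094 (adjusted p = 0.00127) under DMF100 and -0.94 ± 0.12 (adjusted p = 0.000261) under MEF79.2. Without the 3 arrays, 9, 12, 12 and 16 members were called under DMF100, DMF179.2, MEF79.2 and DMF plus MEF. The mean log2 level of 9 tubule injury genes was 7.30, 6.60 and 6.98 in the 3 arrays and 6.32 to 7.19 in the other DMF179.2 and DMF plus MEF kidneys, against 6.09 to 6.49 in vehicle kidneys, with the defining marker Havcr1 at the lowest deposited value, and its part in the result was not tested. The 7.19 belongs to DMF179.2 replicate 21, whose Slc22a7 level was 9.58.

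**Figure D1:**
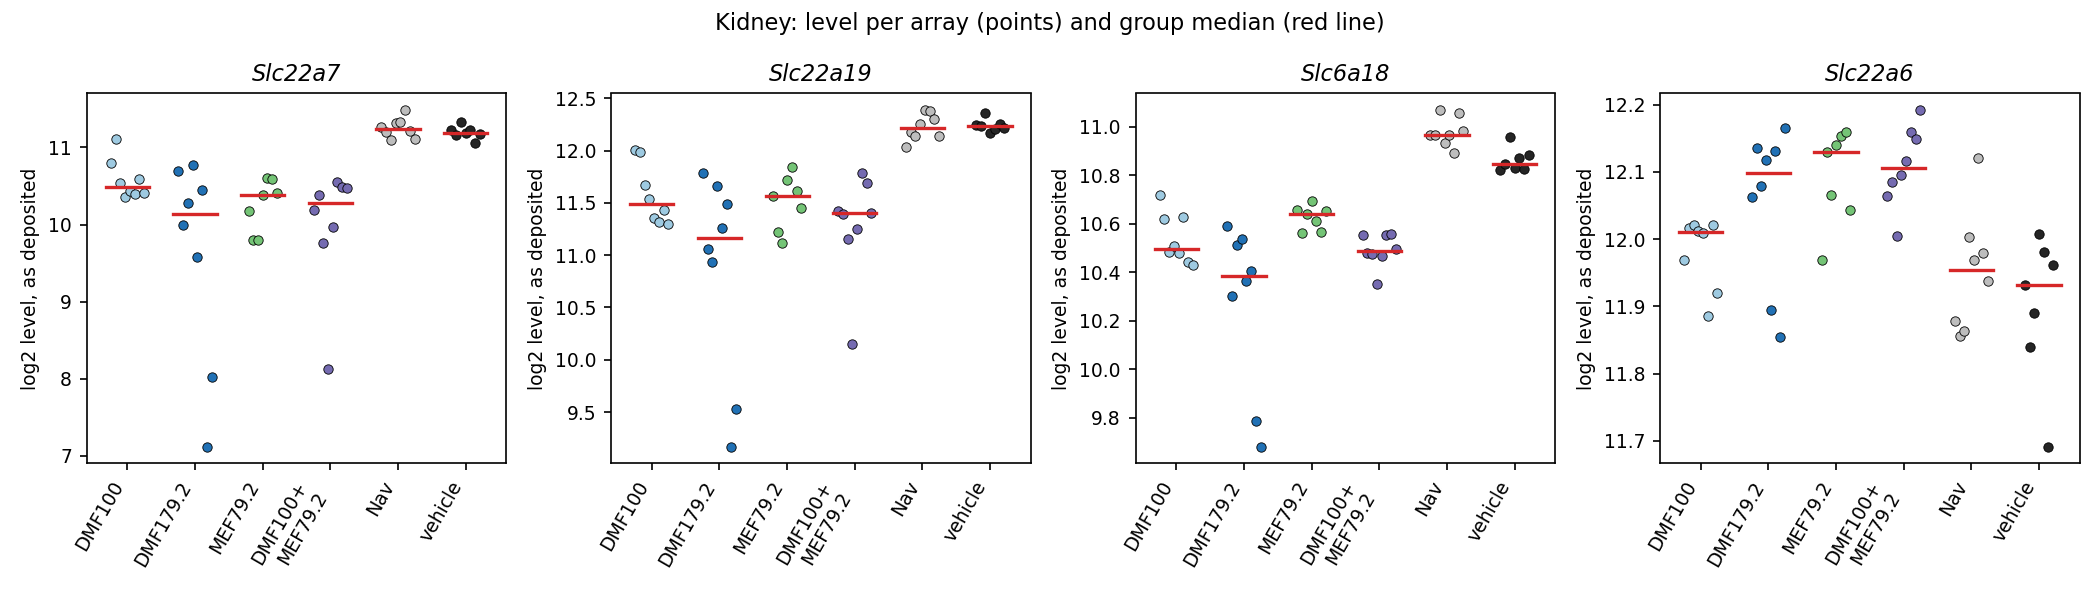
Deposited log2 level of Slc22a7, Slc22a19, Slc6a18 and Slc22a6 in each kidney array (points) by group, with the group median as a red line. For Slc22a19 and Slc6a18 all 31 treated arrays lie below the vehicle arrays, 2 DMF179.2 arrays and 1 DMF plus MEF array lie lowest for Slc22a7, and Nav arrays lie near vehicle for the first 2 genes.

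Slc22a19 encodes OAT5, an apical organic anion carrier known from rodents. Its level was 11.29, 11.49 and 12.01 in DMF100 kidneys, 9.17, 11.16 and 11.79 in DMF179.2 kidneys, 11.12, 11.57 and 11.85 in MEF79.2 kidneys and 10.15, 11.40 and 11.79 in DMF plus MEF kidneys, against 12.17, 12.23 and 12.36 in vehicle kidneys. All 31 treated arrays lay below all 7 vehicle arrays, and Nav kidneys, at 12.04, 12.21 and 12.39, overlapped them. The difference was -1.38 ± 0.24 (adjusted p = 6.92e-05) under DMF179.2, -0.74 ± 0.25 (adjusted p = 0.0438) in MEF79.2 kidneys and -0.96 ± 0.24 (adjusted p = 0.00305) under DMF plus MEF. The MEF79.2 call was lost when no filter was set on low genes (adjusted p = 0.0764). The DMF100 difference, -0.66 ± 0.24 (adjusted p = 0.0831), did not pass with all arrays and was -0.66 ± 0.12 (adjusted p = 0.000135) without the 3 low ones, when the DMF179.2 difference was -0.87 ± 0.12 (adjusted p = 2.38e-06).

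Slc6a18, which reclaims glycine and other neutral amino acids at the apical membrane, was called under all 4 treatments. Its level was 10.43, 10.50 and 10.72 in DMF100 kidneys, 9.68, 10.39 and 10.59 in DMF179.2 kidneys, 10.56, 10.64 and 10.70 in MEF79.2 kidneys and 10.35, 10.49 and 10.56 in DMF plus MEF kidneys, against 10.82, 10.85 and 10.96 in vehicle kidneys. Again all 31 treated arrays lay below every vehicle array, while Nav kidneys, at 10.89, 10.97 and 11.07, lay within or above them. Slc6a18 fell by 0.32 ± 0.080 under DMF100 (adjusted p = 0.00688), by 0.59 under DMF179.2 (adjusted p = 5.71e-07), by 0.24 in MEF79.2 kidneys (adjusted p = 0.0483) and by 0.37 under DMF plus MEF (adjusted p = 0.000584). The MEF79.2 call of Slc6a18 was lost with no filter (adjusted p = 0.0785). Its neighbour in the RefSeq gene table, Slc6a19, which encodes the main neutral amino acid carrier B0AT1, differed from vehicle by -0.13, 0.11, -0.10 and 0.019 under DMF100, DMF179.2, MEF79.2 and DMF plus MEF, none called.

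The 3 genes varied together among kidneys of 1 group. With each array set against its group's mean, Slc22a7 and Slc22a19 had a Pearson r of 0.952 and a Spearman rho of 0.849 over 46 arrays (permutation p within groups 1e-05 for each, the smallest that 100000 resamples can give, adjusted p = 1.5e-05 over 6 relations). Without the 2 arrays farthest from the median of Slc22a7 r was 0.916, and without the 3 low arrays it was 0.868. For Slc22a7 and Slc6a18 r was 0.818 and rho 0.537 (permutation p = 0.00017 and 0.0016, the same after adjustment), and r was 0.800 without the 2 farthest and 0.666 without the 3 low arrays. For Slc22a19 and Slc6a18 r was 0.851 and rho 0.614 (adjusted permutation p = 4.8e-05 and 0.00041), and r was 0.702 without the 2 farthest and 0.690 without the 3 low arrays. Each r without some arrays used deviations from group means that still included them. Such an r cannot show how the remaining arrays vary within groups. The arrays share their processing and the pairs were chosen after the levels were seen.

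Among the other members that handle organic ions, 3 rose. Slc22a12, the apical urate carrier URAT1, differed by 0.37 ± 0.089 (adjusted p = 0.00273) under DMF179.2, 0.39 ± 0.092 (adjusted p = 0.00359) in MEF79.2 kidneys and 0.36 ± 0.089 (adjusted p = 0.00212) under DMF plus MEF, and by 0.25 ± 0.089 (adjusted p = 0.0717) under DMF100, which was not called. Of 31 treated kidneys, 27 lay above all vehicle kidneys for this gene. Slc22a6 (OAT1), which takes up organic anions and drugs from blood, had levels of 11.89, 12.01 and 12.02 in DMF100 kidneys, 11.85, 12.10 and 12.17 in DMF179.2 kidneys, 11.97, 12.13 and 12.16 in MEF79.2 kidneys and 12.00, 12.11 and 12.19 in DMF plus MEF kidneys. In Nav kidneys it had 11.86, 11.95 and 12.12 and in vehicle kidneys 11.69, 11.93 and 12.01. Every range overlapped the vehicle range, with 24 of 31 treated arrays above all vehicle arrays and none below them. Slc22a6 rose by 0.15 under DMF179.2 (adjusted p = 0.014), 0.19 in MEF79.2 kidneys (adjusted p = 0.0043) and 0.21 under DMF plus MEF (adjusted p = 0.000612). Its DMF100 difference was 0.081 (adjusted p = 0.288).

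Slc22a18, an organic cation carrier-like protein, had levels of 11.28, 11.44 and 11.56 in DMF100 kidneys, 11.20, 11.40 and 11.51 in DMF179.2 kidneys, 11.41, 11.45 and 11.53 in MEF79.2 kidneys and 11.41, 11.51 and 11.72 in DMF plus MEF kidneys, against 11.17, 11.31 and 11.43 in vehicle kidneys. Every treated group overlapped vehicle, with 7 of 8 DMF plus MEF, 5 of 7 MEF79.2, 5 of 8 DMF100 and 3 of 8 DMF179.2 kidneys above all vehicle kidneys. It rose by 0.15 under MEF79.2 (adjusted p = 0.0246) and by 0.23 under DMF plus MEF (adjusted p = 0.00016). Nav kidneys, at 11.50, 11.63 and 11.70, lay above every vehicle kidney too. Slc22a2, the cation carrier OCT2, and Slc22a8, the anion carrier OAT3, were not called under any treatment, with differences from -0.068 to 0.099. Slco4c1, an organic anion transporting polypeptide, differed by 0.69 ± 0.26 (adjusted p = 0.0665) under MEF79.2 and was not called.

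Where a member had several probe sets, they did not always give the same call. With every probe set fitted on its own, 7.31%, 16.1%, 13.4% and 28.8% of all kidney probe sets were called under DMF100, DMF179.2, MEF79.2 and DMF plus MEF. The second probe set of Slc22a6 differed by 0.45 ± 0.091 (adjusted p = 0.00107) under DMF100 and 0.50 ± 0.091 (adjusted p = 0.000119) under DMF179.2. The second of Slc22a8 differed by 0.31 ± 0.10 (adjusted p = 0.0283) under DMF179.2 and 0.45 ± 0.10 (adjusted p = 0.000881) under DMF plus MEF, where the first was not called. The second of Slc22a18 was called under all 4 treatments, from 0.21 under DMF100 to 0.34 under DMF plus MEF. Both probe sets of Slc22a12 were called under DMF179.2, MEF79.2 and DMF plus MEF, and the second also under DMF100, at 0.21 ± 0.066 (adjusted p = 0.0408).

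Slc3a1 and Slc7a9 are the heavy and light chains of the apical exchanger that takes up cystine and dibasic amino acids, and the genes mutated in cystinuria. Slc3a1 had levels of 12.17, 12.21 and 12.25 in DMF100 kidneys, 12.02, 12.17 and 12.24 in DMF179.2 kidneys, 12.19, 12.24 and 12.26 in MEF79.2 kidneys and 12.04, 12.16 and 12.21 in DMF plus MEF kidneys. In Nav kidneys it had 12.15, 12.27 and 12.31 and in vehicle kidneys 12.26, 12.29 and 12.37. All 31 treated kidneys lay below every vehicle kidney, though by little, and 4 of 8 Nav kidneys did so too. Slc3a1 differed by -0.14 ± 0.029 (adjusted p = 0.000325) under DMF179.2, -0.16 ± 0.029 (adjusted p = 6.79e-05) under DMF plus MEF and -0.088 ± 0.029 (adjusted p = 0.045) under DMF100, and MEF79.2 did not pass (adjusted p = 0.0801). The DMF100 call of Slc3a1 was lost with each array centred on its median (adjusted p = 0.125). Slc7a9 fell by 0.12 under MEF79.2 (adjusted p = 0.0333) and by 0.13 under DMF plus MEF (adjusted p = 0.0106). Its DMF100 and DMF179.2 differences of -0.11 and -0.10 did not pass. Both genes were also called lower in Nav kidneys, where 5 of 8 lay below every vehicle kidney for Slc7a9.

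Of the other amino acid and peptide carriers in kidney, Slc7a8, a basolateral neutral amino acid exchanger chain, rose under DMF179.2 (0.22 ± 0.081, adjusted p = 0.0479), a call that 4 of 9 alternatives did not keep, with 0.12 ± 0.073 (adjusted p = 0.311) without the 3 low kidneys. Slc7a7, its cationic counterpart, was not called. Slc15a2, the high-affinity apical peptide carrier PEPT2, fell under DMF plus MEF (-0.29 ± 0.095, adjusted p = 0.0173) by its brightest probe set. Its 2 other probe sets fell too, and 1 differed by -0.33 ± 0.11 (adjusted p = 0.0433), -0.60 ± 0.11 (adjusted p = 6.49e-05) and -0.48 ± 0.11 (adjusted p = 0.000754) under DMF100, DMF179.2 and DMF plus MEF, and the other by -0.52 ± 0.10 (adjusted p = 0.000254) under DMF179.2. Slc15a1 was low in kidney, at 4.26 to 5.12 in vehicle arrays, and was not called, with differences between -0.33 and -0.032.

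Slc27a2, a fatty acid carrier and very long chain acyl-CoA synthetase of peroxisomes and the endoplasmic reticulum, was called under all 4 treatments. Its level was 13.14, 13.23 and 13.27 in DMF100 kidneys, 13.08, 13.18 and 13.26 in DMF179.2 kidneys, 13.14, 13.24 and 13.31 in MEF79.2 kidneys and 13.14, 13.18 and 13.25 in DMF plus MEF kidneys, against 13.27, 13.32 and 13.38 in vehicle kidneys. No DMF179.2 or DMF plus MEF kidney overlapped vehicle, and 26 of all 31 treated kidneys lay below it. So did 4 of 8 Nav kidneys. The difference was -0.11 ± 0.029 (adjusted p = 0.0137) under DMF100, -0.15 ± 0.029 (adjusted p = 0.000231) under DMF179.2, -0.087 ± 0.030 (adjusted p = 0.0433) in MEF79.2 kidneys and -0.15 ± 0.029 (adjusted p = 0.000217) under DMF plus MEF. Fitted on each pair of groups alone, the DMF100 and MEF79.2 differences did not pass (adjusted p = 0.058 and 0.074).

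Aqp1, the water channel of the proximal tubule and thin descending limb, had levels of 11.76, 11.80 and 11.88 in DMF100 kidneys, 11.32, 11.68 and 11.84 in DMF179.2 kidneys, 11.75, 11.85 and 11.98 in MEF79.2 kidneys and 11.67, 11.76 and 11.85 in DMF plus MEF kidneys, against 11.85, 11.96 and 12.01 in vehicle kidneys. DMF179.2 and DMF plus MEF kidneys did not overlap vehicle kidneys, and 3 of 8 Nav kidneys also lay below every vehicle kidney. Aqp1 fell by 0.31 under DMF179.2 (adjusted p = 2.58e-05) and by 0.19 under DMF plus MEF (adjusted p = 0.00544), and differed by -0.14 and -0.097 under DMF100 and MEF79.2, not called. Slc9a3, the sodium-hydrogen exchanger NHE3, Slc4a4, the basolateral bicarbonate carrier NBCe1, and the protein uptake receptor subunits Cubn and Amn were not called under any treatment. Over these 4 genes and 4 treatments the differences ran from -0.082 to 0.14.

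Among the carriers of phosphate, sulfate and dicarboxylates, Slc13a3, the basolateral dicarboxylate carrier that supplies OAT1 and OAT3 with exchange substrate, rose under DMF100 (0.18 ± 0.047, adjusted p = 0.0103), DMF179.2 (0.20 ± 0.047, adjusted p = 0.00227) and DMF plus MEF (0.15 ± 0.047, adjusted p = 0.0119). Slc13a3 is 1 of the 4 of 32 members whose promoter window held the antioxidant response element core, against 11.5% of all genes. The 3 others, Amn, Slc26a1 and Slco4c1, were not called in kidney under any treatment. A part of the motif in the rise was not tested. Slc34a3, an apical phosphate carrier, rose by 0.18 under DMF179.2 and 0.15 under DMF plus MEF (adjusted p = 0.0273 and 0.0376), calls that 3 of 9 alternatives did not keep in each case. Without the 3 low kidneys the DMF179.2 difference of Slc34a3 was 0.10 ± 0.054 (adjusted p = 0.192). Slc13a1, Slc13a2, Slc17a1, Slc17a3 and Slc26a1, carriers of sulfate, citrate, phosphate and urate, were not called, with differences between -0.16 and 0.20.

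Among sugar and monocarboxylate carriers, Slc5a12, a sodium-coupled lactate carrier, fell under MEF79.2 (-0.35 ± 0.10, adjusted p = 0.0171) and DMF plus MEF (-0.38 ± 0.098, adjusted p = 0.00355). Its second probe set fell also under DMF100 (-0.27 ± 0.073, adjusted p = 0.0138) and DMF179.2 (-0.34 ± 0.073, adjusted p = 0.000814). Slc5a1 (SGLT1) fell under DMF plus MEF (-0.31 ± 0.099, adjusted p = 0.0159), but its second probe set differed there by 0.00083 ± 0.071 (adjusted p = 0.995). Slc5a2 (SGLT2), the main glucose carrier of the proximal tubule, rose by 0.14 under DMF plus MEF (adjusted p = 0.0284), a call that 2 of 9 alternatives did not keep. In Nav kidneys Slc5a2 was called higher too, with 8 of 8 above every vehicle kidney. Slc2a2 (GLUT2) and Slc5a8 were not called in kidney under any treatment.

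**Figure D2:**
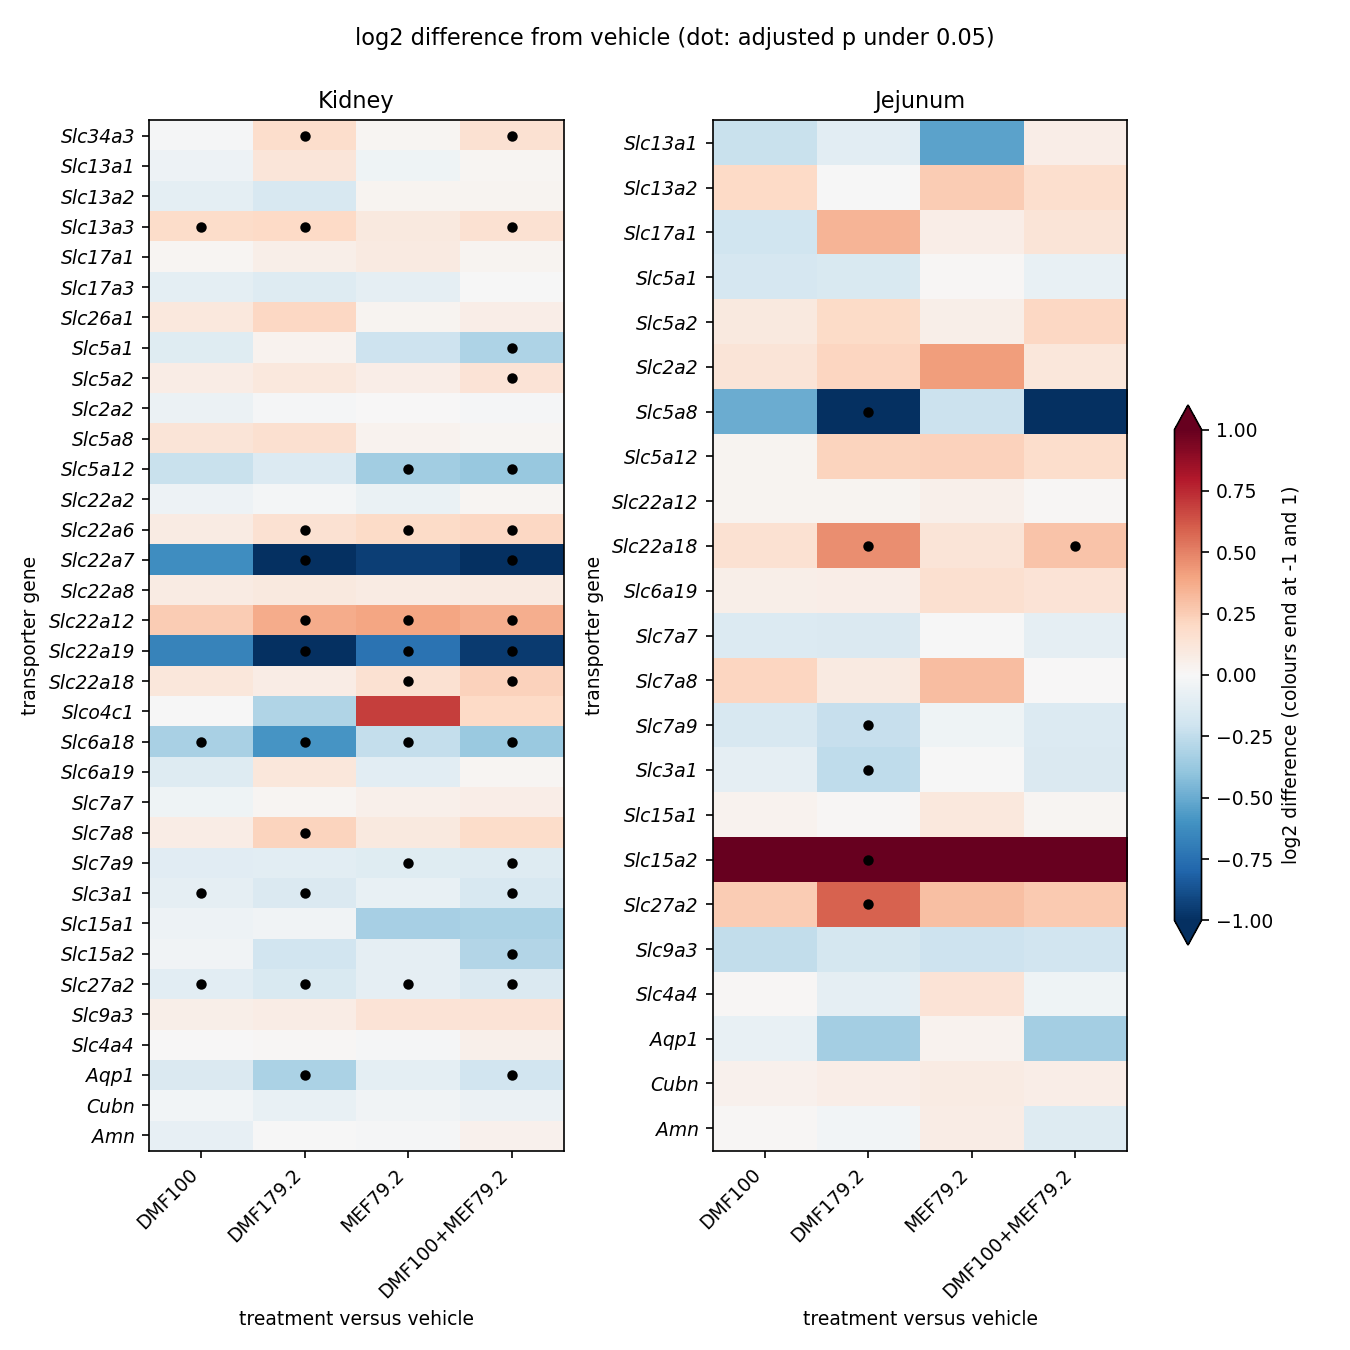
Log2 difference from vehicle of every tested member (rows) under each treatment (columns) in kidney, left, and jejunum, right, as colours that end at -1 and 1, with dots where the adjusted p was under 0.05. In kidney Slc22a7, Slc22a19 and Slc6a18 are the deepest blue under DMF179.2, and in jejunum dots stand under DMF179.2 except 1 under DMF plus MEF.

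Nav kidneys also differed from vehicle kidneys in many members, 13 of 34 (5 rose and 8 fell), a share below that of all genes, at 49.8% of all genes. Slc5a1 (-0.55 ± 0.099, adjusted p = 2.31e-05), Slc5a12 (-0.48 ± 0.098, adjusted p = 0.000101) and Slc13a3 (-0.18 ± 0.047, adjusted p = 0.0016) fell there, and Slc22a18 (0.32 ± 0.045, adjusted p = 4.98e-07) rose. Slc3a1 and Slc7a9 were also called lower and Slc5a2 higher, the directions of their calls under the treatments. The Nav calls of Slc5a1, Slc5a12 and Slc22a18 had the direction of their treatment calls too, and that of Slc13a3 the opposite one. Slc22a7, Slc22a19 and Slc6a18 differed from vehicle in Nav kidneys by 0.057, -0.016 and 0.12, not called. The mean of 18 hybridisation control probe sets was 0.19 higher in Nav than in vehicle kidneys (exact permutation test, two-sided, adjusted p = 0.00673 over 20 tests) and with it as a covariate 5 members were called, a part in the result that was otherwise not tested. In treated kidneys it differed from vehicle by -0.059 to 0.080, none with an adjusted p under 0.05.

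Few members were called between the dosed groups in kidney. For DMF179.2 against DMF100 the members' share was near that of all genes, so that count is no result about the members. Between DMF179.2 and DMF100 kidneys 0 of 34 members were called by limma (7 at an unadjusted p under 0.05), against 1.36% of all genes, and the group means of Slc22a7 differed by -0.96 ± 0.33 (adjusted p = 0.125) and those of Slc6a18 by -0.27 ± 0.077 (adjusted p = 0.0645). Between DMF plus MEF and DMF100, 3 were called, against 14.6% of all genes: Slc34a3 (0.17 ± 0.055, adjusted p = 0.0336), Slc22a6 (0.13 ± 0.044, adjusted p = 0.044) and Slc15a2 (-0.26 ± 0.092, adjusted p = 0.0474). Between DMF179.2 and DMF plus MEF, whose total doses in mg/kg are equal, 2 were called, against 11.4%: Slc5a1 (0.35 ± 0.096, adjusted p = 0.0183) and Slc22a18 (-0.16 ± 0.043, adjusted p = 0.0187). None of these 5 calls was kept in all alternatives.

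Other tubule genes moved in both directions beside the members. Of 21 proximal tubule enzyme and brush border genes tested, 1 rose and 2 fell under DMF100, 2 rose and 6 fell under DMF179.2, 0 rose and 4 fell under MEF79.2, and 2 rose and 7 fell under DMF plus MEF. Over all genes, 4.51%, 10.6%, 8.75% and 17.7% were called higher under these treatments in that order, and 3.58%, 6.09%, 5.45% and 12.6% lower. In Nav kidneys 1 of the 21 rose and 8 fell, against 49.8% of all genes called. Hao2, a peroxisomal hydroxyacid oxidase, fell under all 4 treatments, by 0.70 under DMF plus MEF (adjusted p = 7.26e-13), and Mep1b, a brush border metalloprotease subunit, fell by 1.34 under DMF179.2 (adjusted p = 0.000104). Pck1, the gluconeogenic enzyme, fell by 0.55 under DMF plus MEF (adjusted p = 9.57e-06), and Dpp4 rose by 0.17 under DMF179.2 (adjusted p = 0.000435). The mean level of the 21 genes ranged over 10.48 to 10.62, 10.48 to 10.63, 10.43 to 10.58 and 10.41 to 10.61 in DMF100, DMF179.2, MEF79.2 and DMF plus MEF kidneys, against 10.57 to 10.82 in vehicle kidneys.

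Of 16 loop, distal and collecting duct genes, 2 rose and 2 fell under DMF100, 3 and 3 under DMF179.2, 1 and 4 under MEF79.2 and 1 and 6 under DMF plus MEF, and Aqp4, a basolateral water channel, fell by 1.10 under DMF179.2 (adjusted p = 1.7e-06). Of all genes tested in kidney, 8.09%, 16.7%, 14.2% and 30.3% were called under the 4 treatments in that order. Of 5 tubule injury genes tested 1 rose in DMF100 kidneys, 4 in DMF179.2 kidneys, 0 in MEF79.2 kidneys and 2 in DMF plus MEF kidneys, Fgg by 0.92 (adjusted p = 3.26e-05) and Lcn2 by 1.31 (adjusted p = 0.013) under DMF179.2. The mean level of 9 injury genes lay at 6.26 to 6.51, 6.43 to 7.30, 6.21 to 6.44 and 6.32 to 6.98 in DMF100, DMF179.2, MEF79.2 and DMF plus MEF kidneys, against 6.09 to 6.49 in vehicle kidneys. All 3 tested genes of a liver list, Ttr, Alb and Serpina1a, rose under every treatment, Alb by 0.74 under DMF179.2 (adjusted p = 8.17e-07), with Apoh at the lowest deposited value. In Nav kidneys 2 of these 3 liver genes rose. The part of these lists in the members' differences was not tested. Nqo1, a reference gene of the NRF2 response, rose by 0.82, 1.06, 0.89 and 0.97 under DMF100, DMF179.2, MEF79.2 and DMF plus MEF in kidney. Of 6 such reference genes, 5 rose and 0 fell under each treatment.

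In jejunum the called falls under DMF179.2 were of Slc5a8, Slc3a1 and Slc7a9, and the called rises of Slc22a18, Slc27a2 and Slc15a2. Of 23 members tested, 6 were called under DMF179.2 (3 rose and 3 fell), against 27.4% of all genes (15.6% higher and 11.8% lower). The members' share was near that of all genes, so the count alone is no result about the members. Under DMF plus MEF 1 was called (1 rose), against 3.84%. Under DMF100 limma called 0 (4 at an unadjusted p under 0.05, 2 with array weights), against 0.996%, and under MEF79.2 it called 0 (2 at an unadjusted p under 0.05), against 0.111%. For Nav it called 0 (3 at an unadjusted p under 0.05), against 7.87%. The median member difference was 0.025, 0.014, 0.078 and 0.022 under DMF100, DMF179.2, MEF79.2 and DMF plus MEF, beside -0.0011, 0.017, -0.020 and 0.0079 over all genes. The hybridisation control mean was lower than in vehicle arrays in every other group of jejunum, by 0.059 to 0.16 (exact permutation tests, two-sided, adjusted p between 0.00104 and 0.00435), and with it as a covariate 3 members were called under DMF179.2.

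Slc5a8, a sodium-coupled carrier of lactate and short-chain fatty acids that is known for its expression toward the distal gut, fell most. Its level was 9.81, 11.23 and 11.45 in DMF100 jejunum, 8.02, 9.79 and 11.22 in DMF179.2 jejunum, 10.82, 11.31 and 11.88 in MEF79.2 jejunum and 9.40, 10.60 and 11.50 in DMF plus MEF jejunum. It was 10.06, 11.41 and 11.56 in Nav jejunum and 10.87, 11.59 and 11.85 in vehicle jejunum. Ranges overlapped in all groups, with 12 of 28 treated arrays below every vehicle array. Slc5a8 differed by -1.84 ± 0.35 (adjusted p = 0.000235) under DMF179.2 and by -1.02 ± 0.34 (adjusted p = 0.0757) under DMF plus MEF, which did not pass.

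The levels of Slc5a8 moved with those of ileal genes across jejunum arrays. Fabp6, the ileal bile acid binding protein, differed by -5.23 ± 1.64 (adjusted p = 0.0159) under DMF179.2, and 2 of 3 distal gut genes fell there, against 11.8% of all genes called lower. The mean of the 3 (Fabp6, Fgf15 and Slc10a2) lay at 3.81 to 10.34, 3.32 to 10.59, 5.48 to 10.54 and 3.39 to 11.31 in DMF100, DMF179.2, MEF79.2 and DMF plus MEF jejunum, against 6.67 to 10.74 in vehicle jejunum. Within groups, Slc5a8 and Fabp6 had a Pearson r of 0.833 and a Spearman rho of 0.823 over 43 arrays (permutation p 1e-05 for each, adjusted p = 1.5e-05), and r was 0.825 without the 2 arrays farthest from the median. Group means for that last r still included the 2 arrays. With the mean of the 3 genes as a covariate, chosen after seeing the data, Slc5a8 differed by -0.94 ± 0.21 (adjusted p = 0.00243) under DMF179.2. Where along the intestine each piece was taken was not given, and its part in the result was not tested further.

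**Figure D3:**
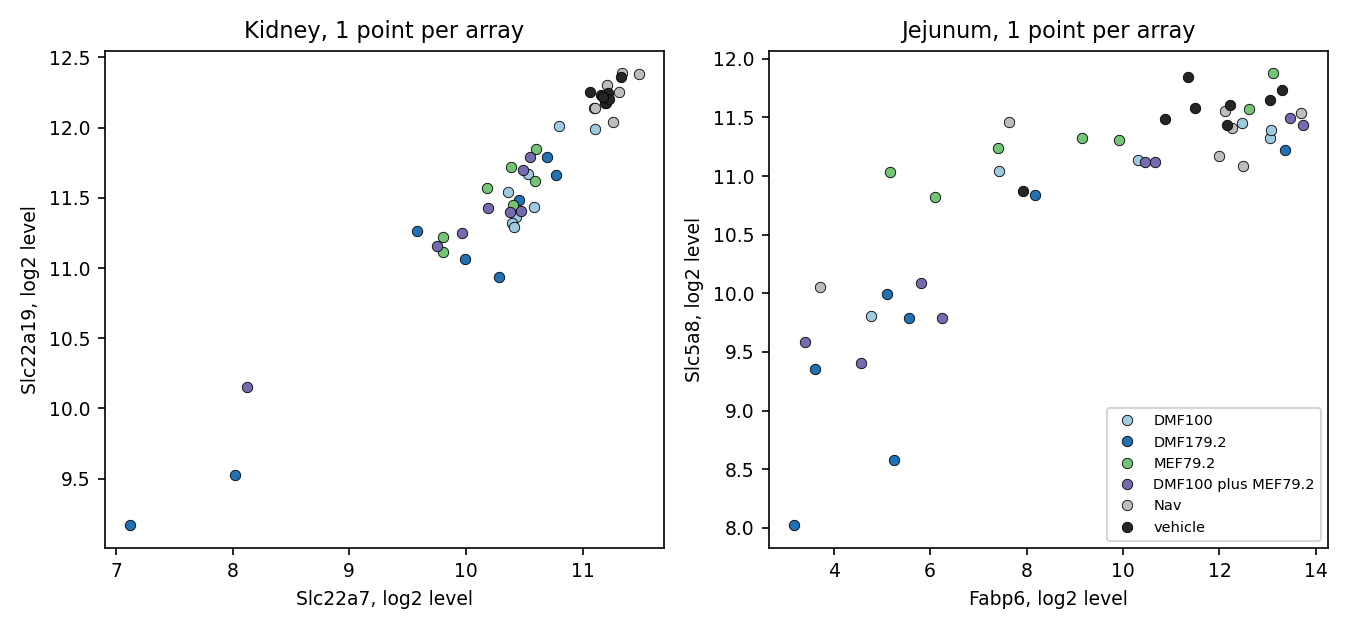
Left, deposited log2 level of Slc22a19 against Slc22a7 in each of 46 kidney arrays; right, Slc5a8 against Fabp6 in each of 43 jejunum arrays, with colours for groups. In kidney treated arrays lie along 1 line below the vehicle and Nav arrays with 3 far down, and in jejunum the arrays with the lowest Fabp6 levels tend to have the lowest Slc5a8 levels.

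Slc27a2, called lower in kidney, had levels of 10.90, 11.17 and 11.47 in DMF100 jejunum, 11.15, 11.52 and 11.80 in DMF179.2 jejunum, 10.57, 11.26 and 11.67 in MEF79.2 jejunum and 10.34, 11.36 and 11.71 in DMF plus MEF jejunum, against 10.64, 10.92 and 11.53 in vehicle jejunum. All ranges overlapped. It rose under DMF179.2 (0.59 ± 0.17, adjusted p = 0.0108). Its Pearson r with Fabp6 within groups was -0.780 and its rho -0.783 (permutation p 1e-05 for each, adjusted p = 1.5e-05, n = 43), with r of -0.758 without the 2 farthest arrays, which the group means still included. With the distal gut covariate it differed by 0.17 ± 0.12 (adjusted p = 0.332), which did not pass.

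Slc22a18 had levels of 9.27, 9.42 and 9.57 in DMF100 jejunum, 9.43, 9.87 and 10.02 in DMF179.2 jejunum, 9.25, 9.44 and 9.59 in MEF79.2 jejunum and 9.28, 9.61 and 9.77 in DMF plus MEF jejunum, against 8.90, 9.33 and 9.51 in vehicle jejunum. DMF179.2 arrays stood highest, with 1 inside the vehicle range. It rose under DMF179.2 (0.47 ± 0.088, adjusted p = 0.000197) and under DMF plus MEF (0.29 ± 0.085, adjusted p = 0.0469), where 3 of 9 alternatives did not keep the call. With the distal gut covariate the DMF179.2 difference was 0.31 ± 0.079 (adjusted p = 0.00681).

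Slc3a1 and Slc7a9, the cystine carrier subunits whose promoter stretches are given above, both fell in DMF179.2 jejunum. Slc3a1 had levels of 11.81, 11.96 and 12.07 in DMF100 jejunum, 11.67, 11.80 and 11.95 in DMF179.2 jejunum, 11.93, 12.07 and 12.19 in MEF79.2 jejunum and 11.78, 11.88 and 12.16 in DMF plus MEF jejunum, against 11.99, 12.04 and 12.20 in vehicle jejunum. DMF179.2 arrays did not overlap vehicle arrays, and the other groups did. For Slc3a1, 5 of 7 Nav arrays also lay below every vehicle array, a difference that was not called. Slc7a9 had levels of 11.70, 11.89 and 12.06 in DMF179.2 jejunum, against 12.03, 12.12 and 12.16 in vehicle jejunum, and the 2 ranges overlapped. Slc3a1 fell by 0.25 (adjusted p = 0.000898) and Slc7a9 by 0.23 (adjusted p = 0.0014) under DMF179.2. With the distal gut covariate the differences were -0.19 ± 0.058 (adjusted p = 0.0186) for Slc3a1 and -0.13 ± 0.046 (adjusted p = 0.0407) for Slc7a9. With the hybridisation control covariate neither passed (adjusted p = 0.0517 and 0.0689).

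Slc15a2 (PEPT2), a peptide carrier best known from kidney and brain, spread more widely over the arrays than any other tested member in jejunum. Its level was 9.83, 10.36 and 11.28 in DMF100 jejunum, 8.87, 9.46 and 11.03 in DMF179.2 jejunum, 6.34, 10.14 and 11.19 in MEF79.2 jejunum and 9.39, 10.02 and 10.80 in DMF plus MEF jejunum. It was 4.41, 10.55 and 11.20 in Nav jejunum and 4.28, 8.38 and 10.01 in vehicle jejunum. Of 8 vehicle arrays 3 lay at 4.28, 4.73 and 4.73 and the others above 8, so every range overlapped, with 15 of 28 treated arrays above all vehicle arrays. The difference was 2.30 ± 0.83 (adjusted p = 0.0337) under DMF179.2, and 2.99, 2.30, 2.54 and 2.00 under DMF100, MEF79.2, DMF plus MEF and Nav, none of these called. The call under DMF179.2 was kept in 4 of 9 alternatives. The value rests on 1 probe set, since the 2 other Slc15a2 probe sets stayed between 2.13 and 3.11 in every jejunum array, while in vehicle kidney they lay at 10.15 to 10.42 and 10.43 to 10.72. Between kidney and jejunum arrays with the same number, which the labels do not tie to 1 mouse, the level of that probe set had a Pearson r of 0.622 and a Spearman rho of 0.701 within groups (n = 42, permutation p 1e-05 for each, adjusted p = 1.5e-05), and r of 0.582 without the 2 farthest, which the group means still included.

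**Figure D4:**
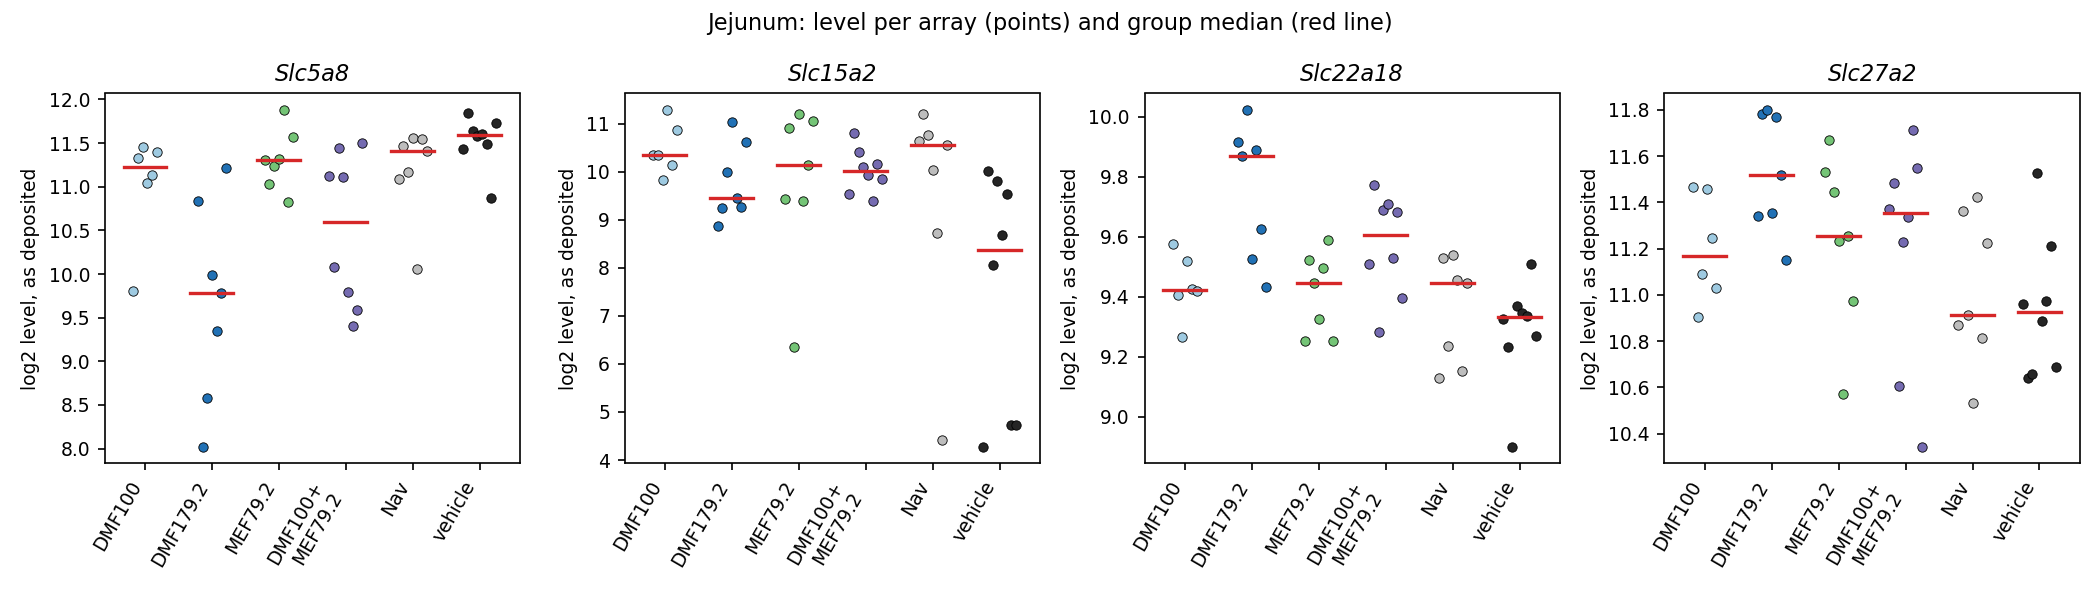
Deposited log2 level of Slc5a8, Slc15a2, Slc22a18 and Slc27a2 in each jejunum array (points) by group, with the group median as a red line. Slc5a8 is lowest in DMF179.2 arrays, Slc15a2 has 3 vehicle arrays near the floor of its range, and Slc22a18 is highest in DMF179.2 arrays.

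The main absorptive carriers of the enterocyte did not pass the test. Slc15a1 (PEPT1) had differences between 0.014 and 0.11, Slc5a1 (SGLT1) between -0.17 and 0.012, and Slc6a19 (B0AT1) between 0.060 and 0.16 over the 4 treatments. Slc2a2, Slc9a3, Slc7a7, Slc7a8, Aqp1, Cubn, Amn, Slc13a1, Slc13a2, Slc17a1, Slc5a2, Slc5a12, Slc22a12 and Slc4a4 were not called against vehicle either. Among all jejunum probe sets fitted alone, 28.5% were called under DMF179.2, and 2 further probe sets of Slc4a4, the bicarbonate carrier, were among them at -0.81 ± 0.21 (adjusted p = 0.00506) and -0.69 ± 0.15 (adjusted p = 0.00115).

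Between DMF179.2 and DMF100 jejunum 3 members were called, against 11.6% of all genes: Slc5a8 (-1.34 ± 0.38, adjusted p = 0.0189), Slc22a18 (0.32 ± 0.094, adjusted p = 0.024) and Slc17a1, an apical anion carrier (0.54 ± 0.17, adjusted p = 0.0349). Between DMF plus MEF and DMF100 limma called 0 (0 at an unadjusted p under 0.05), against 0.157% of all genes. Between DMF179.2 and DMF plus MEF it called 0 (2 at an unadjusted p under 0.05), against 0%.

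Other enterocyte genes moved in both directions under DMF179.2. Over all genes, 15.6% were called higher there and 11.8% lower. Of 14 other enterocyte transporters tested, 4 rose and 1 fell: Abcg8, a sterol exporter, rose by 0.88 (adjusted p = 0.000262) and Slc51a, a bile acid exporter of the ileum, fell by 0.59 (adjusted p = 0.00763). Of 19 enterocyte enzymes, 4 rose and 3 fell, with Treh, the brush border trehalase, higher by 0.70 (adjusted p = 0.00383). Of 4 proximal gut genes 2 rose and none fell, Gata4 by 0.39 (adjusted p = 0.0328). Of 5 crypt stem cell genes 2 fell, where Lgr5 fell by 1.33 (adjusted p = 0.000785), and of 9 transcription factors Cdx1 fell by 0.40 (adjusted p = 0.002). The part of these in the members' differences was not tested. Nqo1 rose by 1.45, 1.94, 0.67 and 1.58 under DMF100, DMF179.2, MEF79.2 and DMF plus MEF in jejunum. Of 6 reference genes of the NRF2 response, 4, 5, 1 and 4 rose there and 0, 1, 0 and 0 fell, in the same order.

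The difference of the kidney and jejunum responses was tested directly for 23 members that passed the filter in both organs. Under DMF179.2 it was called for 5, against 18.1% of 9695 genes. Slc5a8 (2.00 ± 0.35, adjusted p = 2.3e-05) and Slc22a12 (0.35 ± 0.11, adjusted p = 0.0172) were higher in the kidney response, and Slc15a2 (-2.50 ± 0.82, adjusted p = 0.0255), Slc27a2 (-0.74 ± 0.17, adjusted p = 0.00158) and Slc22a18 (-0.39 ± 0.098, adjusted p = 0.00262) lower. Under DMF plus MEF it was called for 3, against 14.2%: Slc5a8 (1.04 ± 0.35, adjusted p = 0.0333), Slc22a12 (0.35 ± 0.11, adjusted p = 0.0182) and Slc15a2 (-2.84 ± 0.81, adjusted p = 0.0127). Slc22a12 was tested in only 3 alternatives, against 5 for Slc15a2, and stayed called in them. In jejunum Slc22a12 differed from vehicle by 0.025 under DMF179.2 and 0.014 under DMF plus MEF, neither called. Both Slc15a2 values rest on 1 probe set, with 3 vehicle jejunum arrays far below the others. They stayed called in all 5 alternatives, from -2.51 to -1.25 under DMF179.2 and from -2.85 to -1.26 under DMF plus MEF. None of the 5 left out the 3 low vehicle jejunum arrays, so they cannot show whether the calls depend on those arrays. Under DMF100 limma called 0, against 0.774%, and under MEF79.2 it called 0, against 2.03% (2 and 4 with array weights). The kidney falls of Slc22a7, Slc22a19 and Slc6a18 have no counterpart in this test, since the 3 genes did not pass the jejunum filter.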

How the data were processed

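Log2 expression values per probe set were deposited by the authors for 308 arrays, and the submitters' processing notes name RMA, GCRMA, R 2.11.1 and limma 3.4.5; the normalisation of each tissue, the probe annotation version and any filter are not given in the sources used here. No further normalisation was applied. Array precision is limited by the number of arrays. Of 45141 probe sets, 28898 had 1 gene symbol, 551 had several and 15692 were unlisted. Where a gene had several probe sets, the brightest by its mean over the 308 arrays stood for it. Group means were fitted in each organ with limma 3.58.1 in R 4.3.3 (lmFit, eBayes), with Benjamini-Hochberg adjustment over all genes tested. Kidney and jejunum responses were compared in 1 fit over both organs. The fit was tested on simulated data. Promoter windows were read from RefSeq, and figures used matplotlib 3.10.9.

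Members called under at least 1 treatment were named, and up to 8 per organ, by smallest adjusted p, were given in full; up to 4 called genes per comparison list were named. The members and lists were chosen with earlier results of these data known. Alternatives changed the filter, the probe set rule, the centring, array weights, the hybridisation controls as a covariate, and the arrays in the fit.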

Additional observations from a re-analysis of the deposited data

Results flagged for a closer look

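Of 84 groups of named members checked for an array far from the others, 13 had one. The limit used is one that chance passes in about 1 in 20 groups of independent values, and these groups share arrays. In kidney, DMF plus MEF replicate 35 was the lowest of its group for Slc22a7 (8.12, next 9.75), Slc22a19 (10.15, next 11.16) and Slc6a18 (10.35, next 10.47). Slc3a1 was lowest in DMF179.2 replicate 23 (12.02, next 12.13) and in DMF plus MEF replicate 39 (12.04, next 12.13). Vehicle replicate 3 had the highest Slc22a19 level of its group (12.36, next 12.25).

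In jejunum, Slc5a8 was lowest in DMF100 replicate 9 (9.81, next 11.04), Nav replicate 45 (10.06, next 11.08) and vehicle replicate 7 (10.87, next 11.43). Slc15a2 was lowest in MEF79.2 replicate 27 (6.34, next 9.39) and Nav replicate 46 (4.41, next 8.71). Slc22a18 was lowest in vehicle replicate 3 (8.90, next 9.23), and Slc3a1 highest in vehicle replicate 4 (12.20, next 12.09).

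The kidney response minus the jejunum response differed from 0 by the limma test of that difference for 8 values. Under DMF179.2 it was 2.00 for Slc5a8, 0.35 for Slc22a12, -0.39 for Slc22a18, -0.74 for Slc27a2 and -2.50 for Slc15a2. Under DMF plus MEF it was 1.04 for Slc5a8, 0.35 for Slc22a12 and -2.84 for Slc15a2. The Slc15a2 values rest on the probe set with low vehicle jejunum arrays described above.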

How the results depend on the processing

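Of 75 called values, 39 stayed called in all alternatives, 36 were lost in at least 1 and 0 reversed; the cause was not tested. The count of members called in kidney under DMF100 (4) was 9 with the mean of the gene's probe sets, 10 with array weights, 8 with every probe set fitted on its own and 9 without the 3 low kidneys, an alternative chosen after seeing the data. Under DMF179.2 in kidney (11) it was 17 with the probe set mean. For Nav kidneys (13) it was 5 with the hybridisation covariate. For DMF179.2 against DMF100 in kidney (0) it was 3 with that covariate. For DMF plus MEF against DMF100 in kidney (3) it was 0 with no filter, with array weights and with the hybridisation covariate, 1 with the pair alone and 7 without the 3 low kidneys. For DMF179.2 against DMF plus MEF in kidney (2) it was 0 with array weights and with the pair alone, and 4 without the 3 low kidneys.

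In jejunum the count under DMF179.2 (6) was 10 with the probe set mean and 3 with the hybridisation covariate. Under DMF100 (0) it was 2 with array weights. For Nav (0) it was 1 with the probe set mean and 1 with every probe set. Under DMF plus MEF (1) it was 2 with the 70th percentile filter and 0 with no filter, the pair alone or the distal gut covariate. For DMF179.2 against DMF100 (3) it was 1 with the pair alone and 1 with the distal gut covariate. For the difference of responses under DMF100 (0) it was 1 with the probe set mean and 2 with array weights, under MEF79.2 (0) 1 and 4, and under DMF plus MEF (3) 5 with array weights.

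Same-numbered kidney and jejunum arrays (42 pairs) had a median correlation of deviations of 0.124, from -0.109 to 0.410, with 25 over 0.1, while arrays of other numbers of the group had a median of -0.0186. The labels do not say that a number marks a mouse, and not every pair was over 0.1, so no block was used in the values reported; the correlations are a hint from the data that some numbers pair. With the number as a replicate block, 1 member was called under DMF100 and 1 under MEF79.2 for the difference of responses, and over all genes 110, 2133, 351 and 1800 were called under DMF100, DMF179.2, MEF79.2 and DMF plus MEF, against 75, 1758, 197 and 1375 without it; 20 of 42 arrays correlated best with their own number.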

Other observations

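The other comparison lists gave calls in both directions. Over all kidney genes, 8.09%, 16.7%, 14.2% and 30.3% were called under DMF100, DMF179.2, MEF79.2 and DMF plus MEF. Over all jejunum genes, 27.4% were called under DMF179.2. In kidney, of 9 podocyte and endothelium genes 0, 0, 0 and 1 rose and 1, 1, 3 and 1 fell under DMF100, DMF179.2, MEF79.2 and DMF plus MEF. Of 6 leukocyte genes 0, 1, 0 and 0 rose and 1, 0, 1 and 1 fell. Of 5 transcription factors of tubule and enterocyte 1 rose and 1 fell under DMF plus MEF and 0 under the other treatments by limma. In jejunum under DMF179.2, of 11 goblet, Paneth and endocrine cell genes 3 rose and 2 fell, and of 7 smooth muscle and enteric neuron genes 1 fell, while none of 8 leukocyte, 2 adipocyte and 1 liver genes was called by limma.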
